A study of Mus musculus with 18 samples.

Results

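Aminoacyl-tRNA synthetases were examined in RNA and ribosome footprints of mouse medulloblastoma cells treated with mTOR inhibitors. Members were the genes in the authors' table whose symbols follow the naming of this family (a letter for the amino acid followed by ars, plus Eprs, Farsa, Farsb and Tarsl2). The rule found 38 genes among 9787 features with a symbol and 15307 features in all: 21 cytosolic enzymes, Tarsl2 included, and 17 mitochondrial enzymes whose names end in 2. All 38 passed the filter on low counts in every fit, and none shared its counts with another gene. Hars and Hars2 have RefSeq ranges on chromosome 18 that overlap by only a few bases, where reads could be given to either gene. The annotation behind the counts is not named and could differ.

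The cells were GTML cells, brain tumour cells that carry a human MYCN transgene. The transgene is driven through the GLT1 promoter in hindbrain neural progenitors of the mouse model, and every group carried it. Cells were grown in neurobasal medium with B27, EGF and bFGF, and were exposed for 3 h to DMSO as the control, to 50 nM Rapalink-1 or to 5 nM rapamycin. Each treatment had 3 replicates, and each replicate gave an RNA library and a ribosome footprint (ribosome-protected fragment) library from one lysate, 18 libraries in all. The labels name a single line and do not say whether replicates were separate cultures, so the p-values measure the spread between these samples, which may be technical.

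Aminoacyl-tRNA synthetases join each amino acid to its transfer RNA and so supply both the cytosolic and the mitochondrial ribosomes. Several cytosolic enzymes are held together in the multi-synthetase complex, and most mitochondrial enzymes are separate nuclear genes, while Gars and Kars each encode the enzyme for both compartments. mTORC1 controls protein synthesis through S6 kinase and through the cap-binding factor eIF4E and its binding proteins. Rapamycin is an allosteric inhibitor that acts mainly on the S6 kinase arm, whereas Rapalink-1, in which a rapamycin-like moiety is linked to an inhibitor of the kinase site, blocks both arms. Transcription of many cytosolic synthetase genes is also known to respond to the stress factor ATF4.

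Libraries held 6788365 to 14150068 reads, and replicates varied by a biological coefficient of variation of 5.72% (RNA) and 6.38% (footprints). Of 10 neural progenitor markers, 8 passed the count filter, and Sox2 and Sox9 were not analysed here. The summed RNA level of the list in DMSO was 1370 to 1460 CPM (counts-per-million). Marker sums were divided by library totals alone, whereas CPM of single genes below are TMM-scaled. Of 27 markers of oligodendrocytes, microglia and blood, vessels and fibroblasts, and neurons, 5 passed the filter. The rest had no feature with reads under their symbol, so the filter did not judge them and their low expression is not shown. The summed footprints of the progenitor list were 1520 to 1610 CPM in DMSO and 2190 to 2220 CPM with Rapalink-1, while those of the microglia and blood list were 52.1 to 78.3 CPM and 26 to 29 CPM. On that scale the median footprint change of all genes with Rapalink-1 was 0.28 (log2). The part of the marker shifts in the synthetase values was not tested. DMSO and Rapalink-1 footprint libraries carry the tag RP-B in their labels and rapamycin footprint libraries the tag RP, whose meaning is not given, so a difference marked by this tag cannot be told apart from an effect of rapamycin, or from a difference between Rapalink-1 and rapamycin, on footprints or efficiency.

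In DMSO, most cytosolic enzymes held more footprints per RNA than most mitochondrial ones. The 21 cytosolic genes took 0.648 ± 0.012% (SD, n = 3) of RNA reads and 0.683 ± 0.031% of footprint reads. The 17 mitochondrial genes took 0.0859 ± 0.003% of RNA reads and 0.0593 ± 0.0015% of footprint reads. In the log2 ratio of footprint CPM to RNA CPM, gene length cancels only if both assays were counted over the same region. The median ratio was 0.14 over the cytosolic genes and -0.43 over the mitochondrial genes, against -0.01 over all 10988 genes tested in both assays. The ratio was above 0 in 16 of 21 cytosolic and in 3 of 17 mitochondrial genes.

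The isoleucine enzyme Iars had the highest ratio of the family, at a mean of 1.21 over the 3 DMSO dishes, which put it above 90.2% of all genes or level with them. The mitochondrial leucine enzyme Lars2 came next, with 0.85, 1.02 and 0.95 in the 3 dishes, and the tryptophan enzyme Wars followed with 0.91, 0.72 and 1.06. The dish ranges of these neighbours in the order overlapped. At the low end, the mitochondrial valine enzyme Vars2 had -0.95, -1.27 and -1.20, the mitochondrial phenylalanine enzyme Fars2 had -0.88, -1.27 and -1.25, and the mitochondrial cysteine enzyme Cars2 had -1.02, -1.16 and -0.82. These 3 ranges also overlapped one another. The ratio of 2 assays depends on how each is scaled and on the part of the transcript counted in each, which is not named. The order of genes is therefore a description of these libraries, and the values were not tested.

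**Figure D1:**
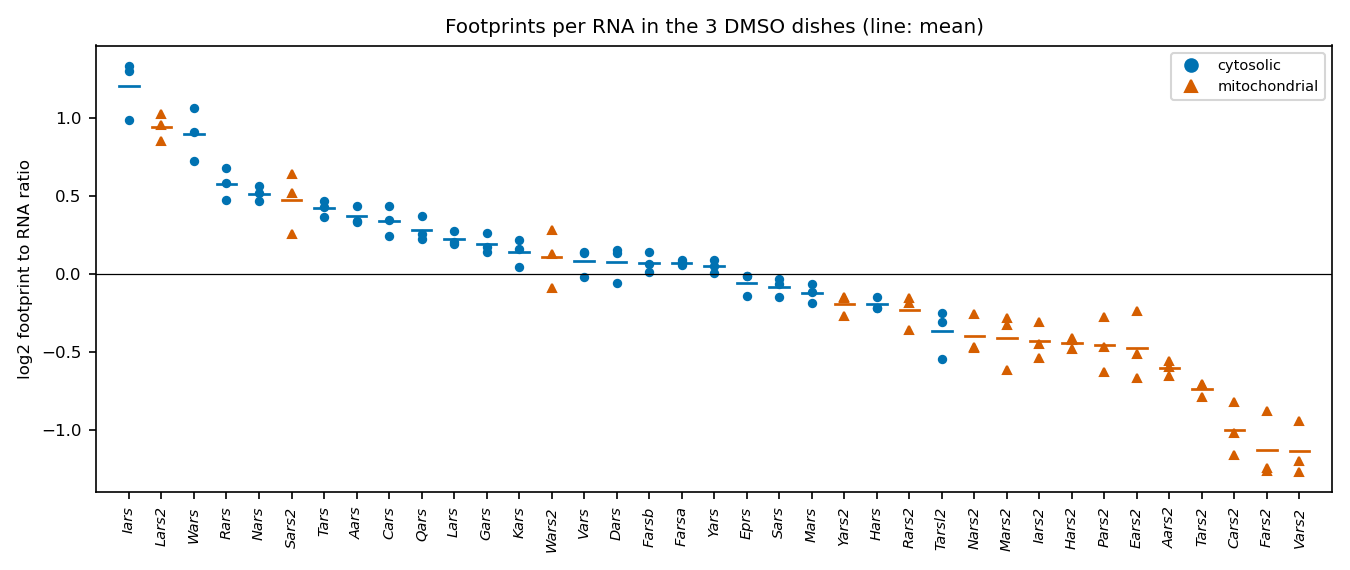
Log2 ratio of footprint CPM to RNA CPM in the 3 DMSO dishes for 37 of the 38 synthetase genes, ordered by their mean (points: dishes, line: mean). Cytosolic genes (circles) lie above 0 in 16 of 21 cases and mitochondrial genes (triangles) in 3 of the 16 plotted, with Lars2, Sars2 and Wars2 as the mitochondrial exceptions.

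With Rapalink-1, mRNAs of 13 of 21 cytosolic synthetases held fewer footprints per RNA on the TMM scale (trimmed mean of M-values). Of 17 mitochondrial ones, 7 held more and 3 held fewer. Translational efficiency is the change in footprints beyond the change in RNA, tested as the interaction of assay and treatment in edgeR's quasi-likelihood model over all 18 libraries, and a gene was called at a Benjamini-Hochberg adjusted p under 0.05 over all genes. Of the 21 cytosolic genes 13 were called lower, at a median log2 change of -0.25, and 0 were called higher, also at an unadjusted p under 0.05 in edgeR and with DESeq2. Of the 17 mitochondrial genes 7 were called higher and 3 lower, at a median of 0.12. Among all genes, 22.3% were called higher and 19.9% lower, at a median of 0.06. At an unadjusted p under 0.05 in edgeR, 7 mitochondrial genes were higher and 6 lower, and DESeq2 called 7 higher and 3 lower. By the authors' own adjusted p-values 7 were higher and 5 lower. Shares of all genes at these other settings are not given here.

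These directions depend on how libraries are scaled. When reads were divided by library totals alone, without the TMM factors, the median of all genes moved by 0.37 to 0.43, and the calls over all genes went from 2455 higher and 2182 lower to 5563 higher and 841 lower. On that scale 7 cytosolic genes were called lower and 7 higher, and the cytosolic median turned to 0.11, while 10 mitochondrial genes were called higher and 0 lower. Relative to the median of all genes, the cytosolic median was -0.31 on both scales and the mitochondrial median 0.06 on both. A change of scaling moves every gene by nearly the same amount, so these relative medians could hardly differ between the scales. Their likeness is therefore no test of the result. Below the median of all genes lay 20 of 21 cytosolic genes. The 7 cytosolic genes called lower on both scales were Qars, Tarsl2, Kars, Vars, Sars, Farsb and Eprs. The 7 mitochondrial genes called higher on both included Hars2, Vars2, Nars2, Fars2, Rars2 and Lars2.

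**Figure D2:**
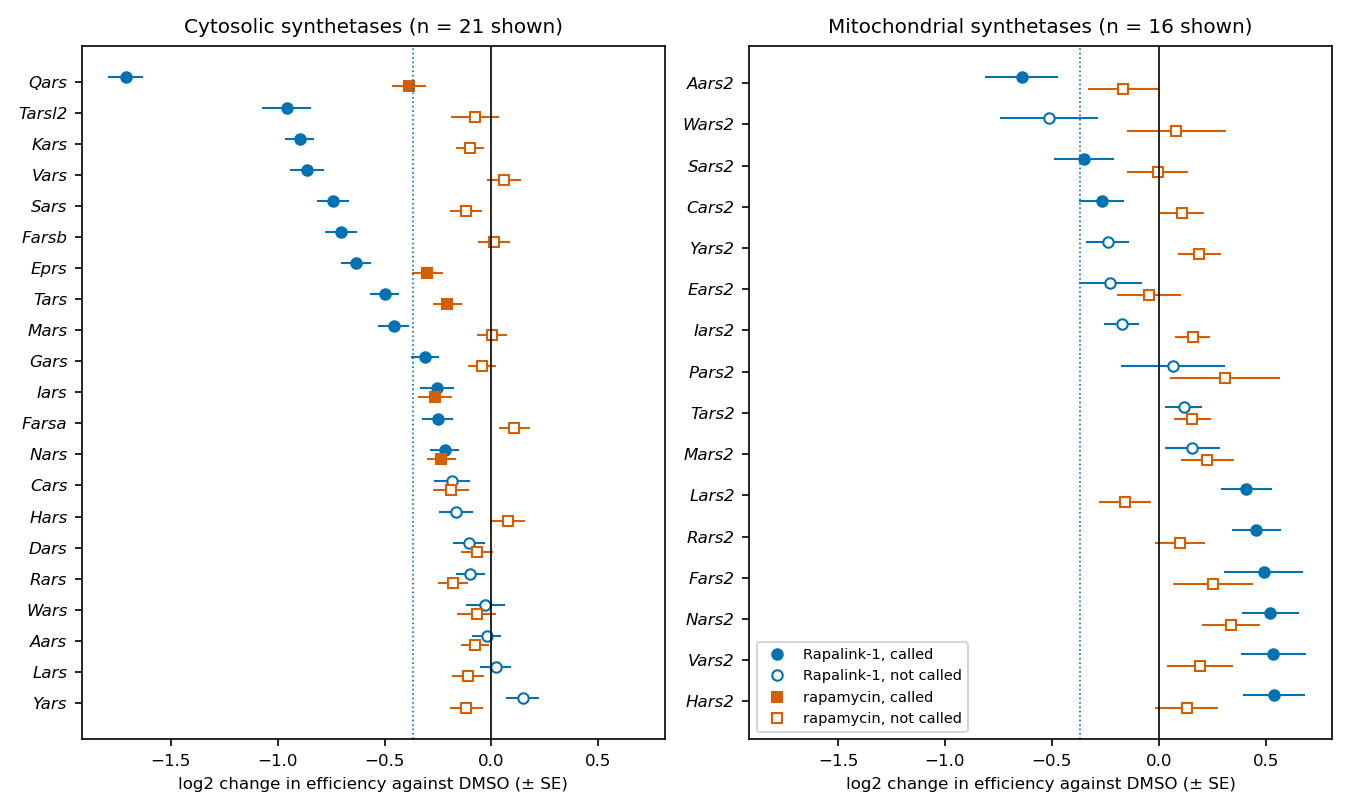
Log2 change in translational efficiency against DMSO, with its SE, for the 21 cytosolic genes (left) and 16 of the 17 mitochondrial genes (right), ordered by the Rapalink-1 value (circles: Rapalink-1, squares: rapamycin, filled: adjusted p under 0.05 over all genes). The solid line is 0 under TMM scaling and the dotted line marks where 0 would lie for Rapalink-1 under library totals alone, 0.37 lower. Qars stands apart at -1.71 with Rapalink-1, and the cytosolic genes from Qars down to Mars lie left of both lines.

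Qars (ENSMUSG00000032604, GRCm38 chromosome 9, 108508005 to 108515941), the glutamine enzyme and a subunit of the multi-synthetase complex, changed most. Its footprints stood at 164, 172 and 158 CPM in DMSO and at 74.9, 78.6 and 71.7 CPM with Rapalink-1. Its RNA moved the other way, from 140.0, 132 and 131 CPM to 203, 196 and 219 CPM. Neither assay overlapped between the groups, and the footprints fell while the RNA rose. Separation from DMSO without overlap was common among all genes with Rapalink-1. In footprints 3237 of 11281 genes lay above and 3390 below, and in RNA 2676 of 11271 lay above and 2518 below. Genes chosen here for large called changes are likely to separate, so separation adds little to a call. The log2 change of Qars was 0.62 ± 0.053 (SE) in RNA and -1.13 ± 0.061 in footprints. Its efficiency changed by -1.71 ± 0.082 (adjusted p = 4.94e-25), a 3.27-fold fall, and 1.41% of all genes had a value this low or lower. In the authors' deposited table the efficiency change of Qars was -1.72. Under library totals it was -1.34.

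Tarsl2, a second cytosolic threonine enzyme, was the next in efficiency at -0.96 ± 0.11 (adjusted p = 7.76e-10). Its footprints were 48.4, 50.9 and 39.9 CPM in DMSO and 31.7, 30.03 and 32.6 CPM with Rapalink-1. Its RNA was 59.6, 60.1 and 57.7 CPM in DMSO and 83.2, 81.9 and 76.4 CPM with Rapalink-1. Both assays again separated the groups in opposite directions. Kars, the lysine enzyme, followed at -0.90 ± 0.067 (adjusted p = 6.99e-17). Footprints of Kars went from 425, 425 and 399 CPM to 257, 263 and 258 CPM, with no overlap. The RNA of Kars went from 379, 363 and 382 CPM to 451, 449.5 and 440.4 CPM, also without overlap.

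Next to these, the valine enzyme Vars changed by -0.86 ± 0.080, the serine enzyme Sars by -0.74 ± 0.074, the phenylalanine subunit Farsb by -0.70 ± 0.075 and the double glutamate and proline enzyme Eprs by -0.63 ± 0.071. Further called falls were Tars at -0.50, Mars at -0.46, Gars at -0.31, Iars at -0.25, Farsa at -0.25 and Nars at -0.22. Under library totals none of these 6 was called, and Gars, Iars, Farsa and Nars had values above 0 (0.06, 0.11, 0.12 and 0.15). Iars was no longer called when DMSO replicate 1 (-0.21, adjusted p = 0.058 in edgeR) or DMSO replicate 2 (-0.20, adjusted p = 0.0654 in edgeR) was left out.

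The other 8 cytosolic genes were not called, with changes between -0.18 for the cysteine enzyme Cars and 0.15 for the tyrosine enzyme Yars. Under library totals 7 of these 8, all but Cars, were called higher, with values from 0.20 for Hars to 0.52 for Yars. The alanine enzyme Aars was at -0.02 ± 0.066 and the leucine enzyme Lars at 0.02 ± 0.074. The change in efficiency thus ran from that of Qars to that of Yars within 1 enzyme family. In the multi-synthetase complex, 5 of 8 subunits were called lower (Qars, Kars, Eprs, Mars and Iars) and 3 were not called (Dars, Rars and Lars), while 8 of the 13 cytosolic genes outside it were called lower. Under library totals 3 subunits were called lower (Qars, Kars and Eprs) and 3 higher (Dars, Rars and Lars). By fold of the catalytic domain, 4 of 9 class I and 8 of 11 class II genes were called lower. Under library totals 2 class I genes were called lower and 4 higher, and 4 class II genes lower and 3 higher. Eprs, which holds a domain of each class, was counted in neither. Among all genes 19.9% were called lower on the TMM scale, and far more were called higher than lower under library totals.

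**Figure D3:**
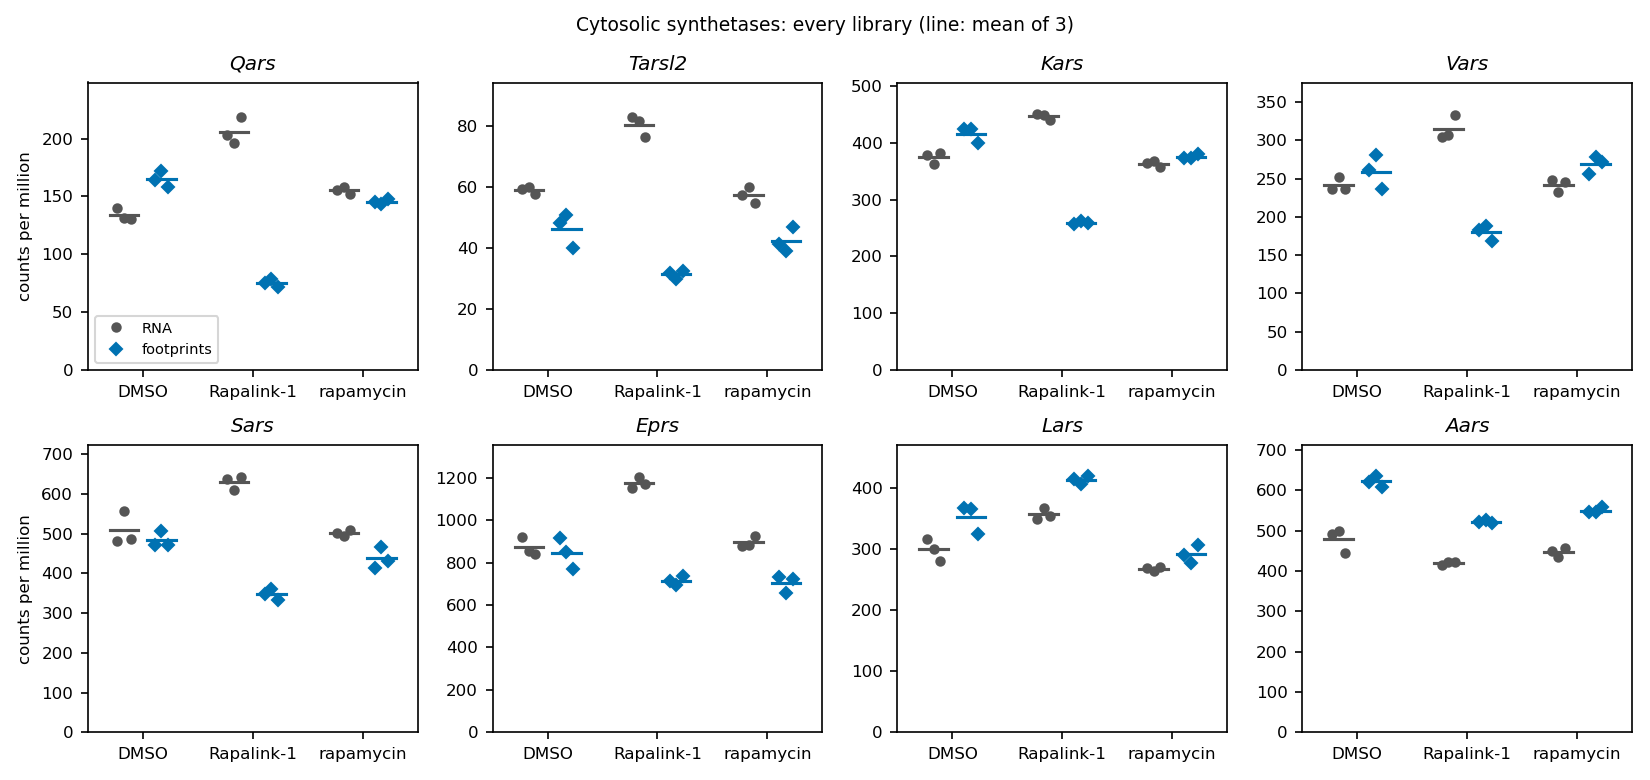
TMM-scaled CPM of 8 cytosolic synthetases in every RNA library (grey circles) and every footprint library (blue diamonds), by treatment, with the mean of the 3 libraries as a line and each axis starting at 0. In Qars, Tarsl2, Kars, Vars, Sars and Eprs the RNA is higher and the footprints lower with Rapalink-1 than with DMSO, whereas Lars is higher and Aars lower in both, on the TMM scale.

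Some mRNAs whose translation depends on mTORC1 begin with a C followed by a run of pyrimidines (C or T), the 5′ terminal oligopyrimidine motif best known from ribosomal protein mRNAs. The annotated starts of cytosolic members with the largest falls are shown against Rps18, a ribosomal protein gene that has the motif. Each line gives 30 bases of RefSeq sequence (GRCm38.p6) on the gene's strand, 5′ to 3′, with capitals from the annotated start onwards.
Qars, chr9:108507995-108508024, plus strand: tcaaggcttcGTACTCCTATTGGTCAATGA
Tarsl2, chr7:65644888-65644917, plus strand: ccgtctccttGTCACTCTGGCTGGGCTGGC
Kars, chr8:112011335-112011364, minus strand: tttcccggaaGAGGCAGGACTTAGAGCCAC
Sars, chr3:108445240-108445269, minus strand: cttccggcgaGCTAGGCGCCGCCCCCTCCC
Farsb, chr1:78488878-78488907, minus strand: gggtccttcaCTCTAGGGTCGCTGAGGCCC
Eprs, chr1:185363034-185363063, plus strand: atgacgtgtcGTAGCGTGCGCACCGACTCC
Rps18, chr17:33955646-33955675, minus strand: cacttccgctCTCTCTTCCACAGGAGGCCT
A C at the annotated start followed by 4 pyrimidines was found in 0 of 14 cytosolic and 1 of 14 mitochondrial members with a RefSeq entry (Wars2), in 12 of 58 cytosolic ribosomal protein genes (20.7%) and in 2.49% of the 27025 genes in the table. In Farsb the start has a C followed by 3 pyrimidines. Rps7, another ribosomal protein gene known for the motif, failed the rule of a C and 4 pyrimidines at its annotated start, as did most ribosomal protein genes. A start in the annotation can lie a few bases from the one used in these cells. The count therefore describes the annotated base only and does not show that the motif is absent. Vars was among the genes without an entry.

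Among mitochondrial enzymes, efficiency rose for the histidine and valine enzymes, whose RNA was not called in either direction. The histidine enzyme Hars2 had footprints of 18.3, 20.5 and 18.4 CPM in DMSO and of 29.0, 27.5 and 27.4 CPM with Rapalink-1. Its RNA was 24.6, 28.5 and 24.2 CPM and 27.9, 25.9 and 27.5 CPM. Its footprints did not overlap and its RNA did, and the efficiency change was 0.54 ± 0.14 (adjusted p = 0.0019). Vars2 had footprints of 13.2, 11.8 and 12.9 CPM in DMSO and of 18.7, 21.6 and 19.4 CPM with Rapalink-1. Its RNA was 25.5, 28.5 and 29.5 CPM and 30.04, 30.1 and 31.8 CPM. The RNA groups were adjacent rather than far apart, with a change of 0.15 that was not called, and efficiency changed by 0.54 ± 0.15 (adjusted p = 0.003).

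Efficiency also rose for the asparagine enzyme Nars2 (0.52), the phenylalanine enzyme Fars2 (0.49), the arginine enzyme Rars2 (0.46) and Lars2 (0.41). The call of Fars2 was lost in 4 of the 6 fits that left out a replicate, with 0.37 and an adjusted p of 0.163 in edgeR without Rapalink-1 replicate 2. The calls of Nars2, Rars2, Lars2, Hars2 and Vars2 were kept in every fit that left out a replicate. These rises were larger under library totals, for example 0.78 for Lars2 and 0.91 for Hars2.

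The alanine enzyme Aars2 went against these genes. Its footprints were 15.5, 18.2 and 16.7 CPM in DMSO and 9.76, 13.5 and 10.1 CPM with Rapalink-1. Its RNA was 24.4, 26.8 and 25.1 CPM and 24.4, 31.1 and 25.8 CPM. The footprints separated and the RNA overlapped, and efficiency changed by -0.64 ± 0.17 (adjusted p = 0.00193), or by -0.27 without a call under library totals. The serine enzyme Sars2 changed by -0.35 ± 0.14 and Cars2 by -0.27 ± 0.105. These calls were lost in 5 of the 6 fits each that left out a replicate, with values of -0.27 for Sars2 and -0.18 for Cars2 without DMSO replicate 3, and under library totals both values were above 0 (0.02 and 0.10).

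In Sars2 the RNA rose, from 20.2, 19.3 and 17.7 CPM to 26.6, 25.8 and 24.8 CPM, while its footprints, 24.3, 27.9 and 28.0 CPM in DMSO and 28.9, 27.2 and 25.3 CPM with Rapalink-1, overlapped. In Cars2 neither assay was called: RNA was 73.3, 75.4 and 70.3 CPM in DMSO and 78.9, 78.5 and 79.6 CPM with Rapalink-1, and footprints were 36.2, 33.8 and 40.2 CPM and 31.0, 32.5 and 33.1 CPM. Both assays of Cars2 separated the groups by a small margin, in opposite directions. The tyrosine enzyme Yars2 had an efficiency change of -0.24 that missed the threshold (adjusted p = 0.054), and it was called (-0.25, adjusted p = 0.0383 in edgeR) when the RNA and footprint libraries of one dish were treated as a pair.

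**Figure D4:**
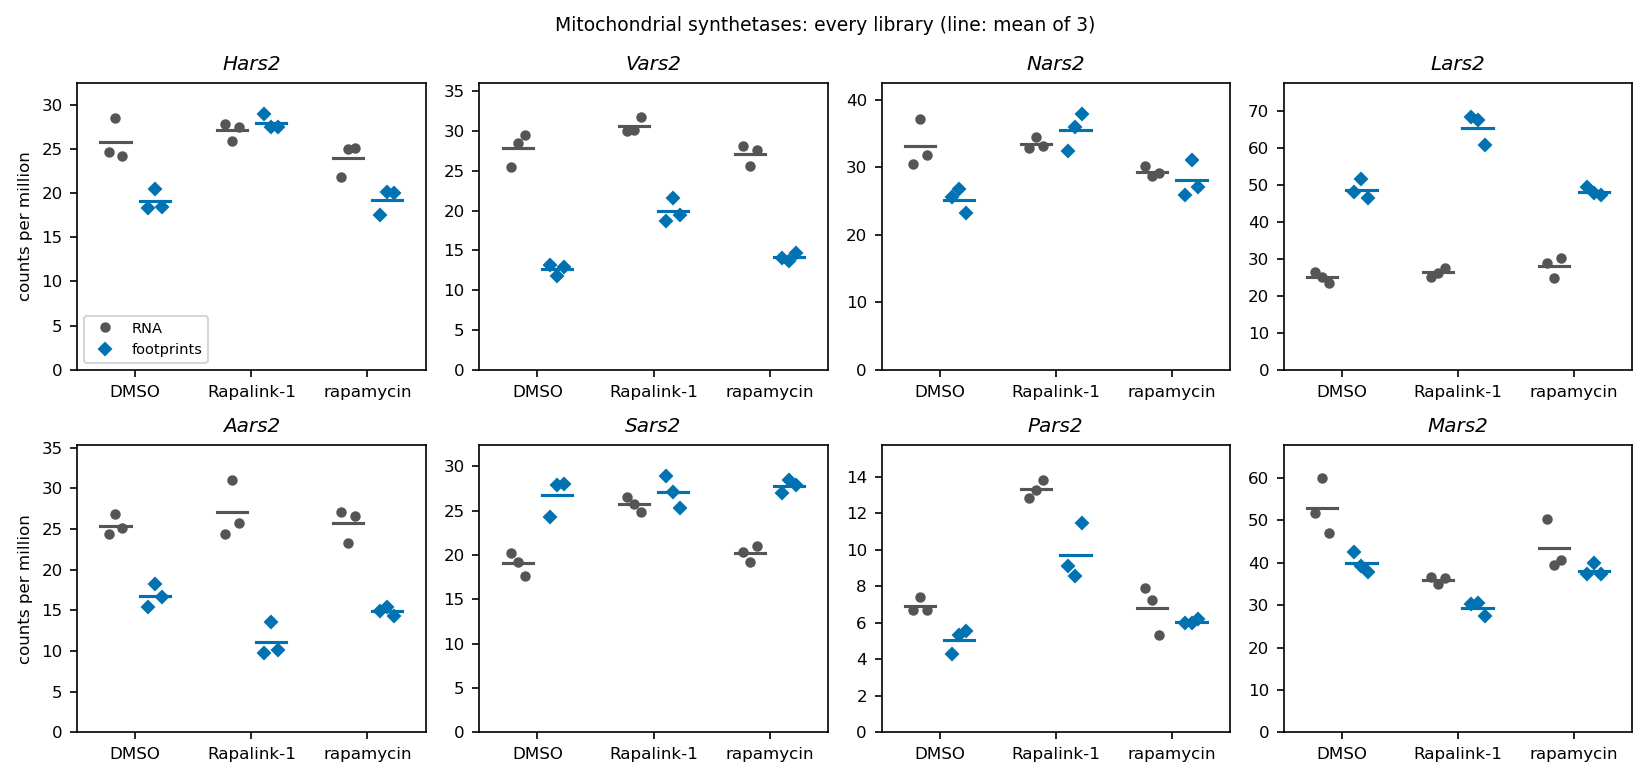
TMM-scaled CPM of 8 mitochondrial synthetases in every RNA library (grey circles) and every footprint library (blue diamonds), by treatment, with the mean of the 3 libraries as a line and each axis starting at 0. Footprints of Hars2, Vars2, Nars2 and Lars2 are higher with Rapalink-1 than in any DMSO library with RNA close to its DMSO level, those of Aars2 are lower, and Pars2 and Mars2 move in both assays.

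For 14 amino acids a cytosolic and a mitochondrial gene with the same root name could be set side by side, and a common scaling moves both alike. In 10 of the 14, the efficiency change with Rapalink-1 was higher in the mitochondrial gene. The widest gap was that of the valine enzymes, -0.86 for Vars and 0.54 for Vars2, and other wide gaps were those of asparagine (-0.22 for Nars and 0.52 for Nars2) and histidine (-0.17 for Hars and 0.54 for Hars2). The order was turned in alanine (-0.02 for Aars and -0.64 for Aars2), tryptophan (-0.03 for Wars and -0.51 for Wars2), tyrosine (0.15 for Yars and -0.24 for Yars2) and cysteine (-0.18 for Cars and -0.27 for Cars2). The gap within a pair was not tested.

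Footprints alone divided the family in a like way. With Rapalink-1, 14 of 21 cytosolic genes were called lower and 1 higher (median -0.24), and 10 of 17 mitochondrial genes were called higher and 3 lower (median 0.33), where 25.7% of all 11281 genes were called higher and 28% lower. Under library totals the cytosolic counts were 7 lower and 8 higher (median 0.03) and the mitochondrial ones 12 higher and 1 lower (median 0.60), with the median of all genes moved by 0.27 and the calls over all genes from 2896 higher and 3161 lower to 5400 higher and 1587 lower. As a share of all footprint reads, which is the library-totals scale, the mitochondrial genes went from 0.0593 ± 0.0015% (SD, n = 3) in DMSO to 0.0832 ± 0.00055% with Rapalink-1, and the cytosolic genes from 0.683 ± 0.031% to 0.702 ± 0.0071%. The largest falls among cytosolic genes were those of Qars (-1.13), Kars (-0.68) and Tarsl2 (-0.56), with that of the mitochondrial Aars2 (-0.60) between Kars and Tarsl2, and all 4 were also called lower under library totals.

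Lars was the only cytosolic gene with a called rise in footprints on the TMM scale. It went from 366, 366 and 325 CPM in DMSO to 414, 406 and 419 CPM with Rapalink-1, without overlap, a log2 change of 0.23 ± 0.055. Its RNA rose by a like amount, from 317, 300.2 and 280.0 CPM to 348.5, 367.5 and 354 CPM. Among mitochondrial genes, the proline enzyme Pars2 had the largest rise, from 4.30, 5.33 and 5.57 CPM to 9.12, 8.55 and 11.5 CPM, a change of 0.96 ± 0.19. Its RNA rose by a like amount, and its efficiency change was 0.07 ± 0.24 without a call. Vars2 (0.64) and Hars2 (0.56) rose as well.

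The methionine enzyme Mars2 lost footprints, from 42.6, 39.3 and 37.9 CPM to 30.2, 30.5 and 27.3 CPM, a change of -0.45 ± 0.089. Its RNA fell too, from 51.6, 59.9 and 47.0 CPM to 36.6, 35.0 and 36.5 CPM. Neither assay overlapped between the groups. Yars2 lost footprints, from 69.9, 67.0 and 65.0 CPM to 57.7, 52.8 and 51.1 CPM (-0.32 ± 0.075), with RNA of 77.4, 80.5 and 71.0 CPM in DMSO and of 79.6, 70.2 and 73.8 CPM with Rapalink-1 that overlapped. Under library totals the footprint changes of Mars2 and Yars2 were -0.18 and -0.05 and were not called, while that of Aars2 was (-0.32). Among called changes of footprints, Ears2 and Iars2 in the mitochondrial group and Nars in the cytosolic group lost their calls in at least 1 fit that left out a replicate. Ears2 moved from 0.36 to 0.28 without DMSO replicate 1, the 1 replicate on which its call rested. Iars2 lost its call in 5 of the 6 fits, at 0.11 without DMSO replicate 2, and Nars in 3, at -0.11 without Rapalink-1 replicate 1.

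RNA of cytosolic synthetases rose with Rapalink-1 more often than it fell. On the TMM scale 13 of 21 cytosolic genes were called higher and 2 lower (median 0.21), and 5 of 17 mitochondrial genes were called higher and 1 lower (median 0.09), where 19.4% of all 11271 genes were called higher and 18.8% lower. Under library totals, with the median of all genes moved by -0.14 and the calls over all genes from 2182 higher and 2123 lower to 1123 higher and 3731 lower, the cytosolic counts were 7 higher and 3 lower (median 0.07) and the mitochondrial ones 4 higher and 2 lower (median -0.05). Of the 13 cytosolic genes with higher RNA, 10 had fewer footprints (Eprs, Farsb, Gars, Kars, Nars, Qars, Sars, Tars, Tarsl2 and Vars), which lie in the lower right of the plot of RNA against footprint changes. Under library totals 5 genes had both calls (Kars, Qars, Sars, Tarsl2 and Vars), while Farsb was no longer called in RNA, Eprs no longer in footprints, and Gars and Tars in neither, and Nars was called in footprints alone, as higher. No mitochondrial gene combined a called rise of RNA with a called fall of footprints on either scale. The share of all genes with both calls was not counted, so the combination is not shown to be particular to cytosolic synthetases.

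**Figure D5:**
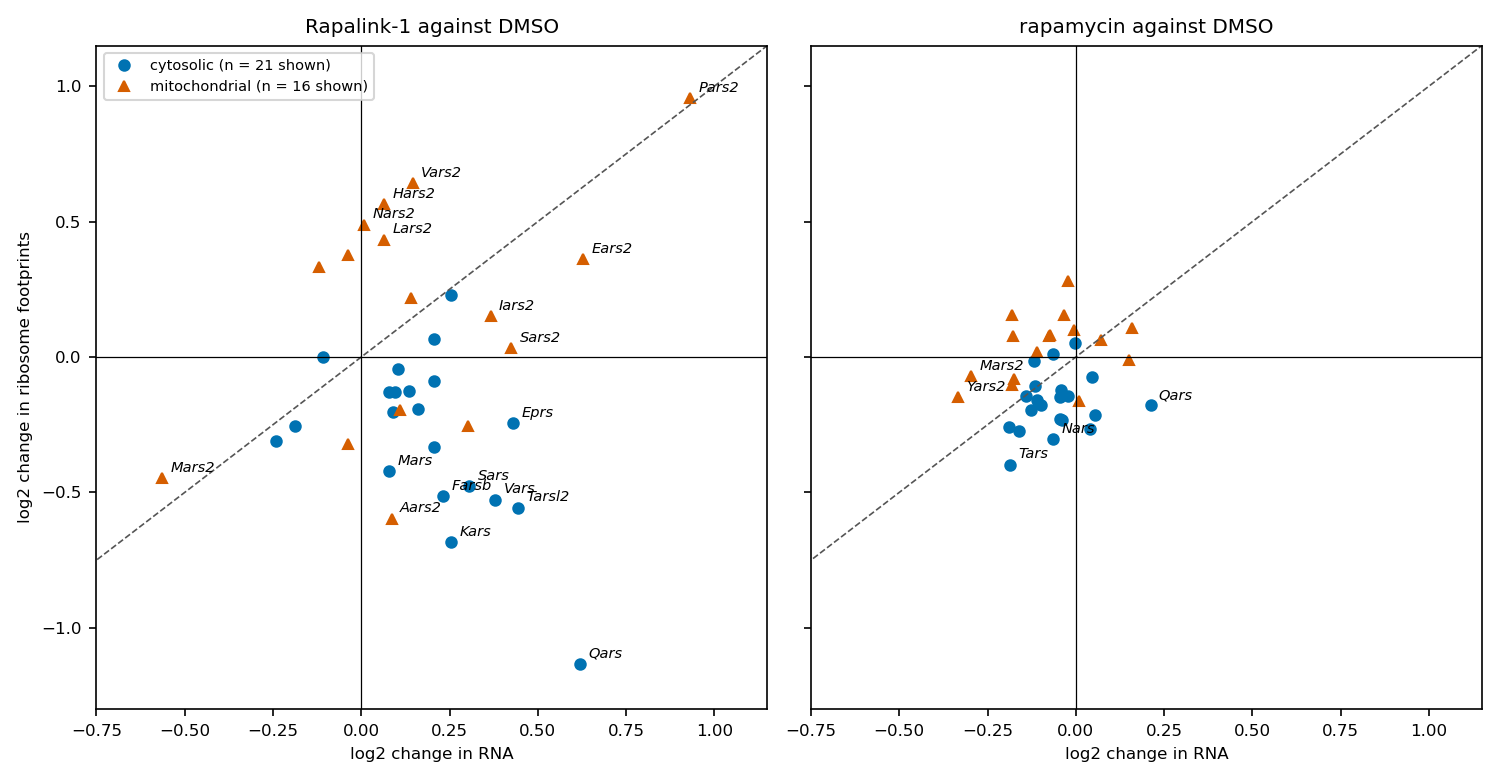
Log2 change in RNA (horizontal) against log2 change in ribosome footprints (vertical) of 37 of the 38 synthetase genes, with Rapalink-1 (left) and with rapamycin (right), on the TMM scale. Points on the dashed line change alike in both assays; with Rapalink-1 cytosolic genes (circles) such as Qars lie to the lower right, and mitochondrial genes (triangles) such as Vars2 lie above the line.

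The largest cytosolic RNA rises were those of Qars (0.62), Tarsl2 (0.44) and Eprs (0.43). Eprs went from 919, 853 and 842 CPM in DMSO to 1153, 1203 and 1169 CPM with Rapalink-1, and its footprints from 916, 851 and 772 CPM to 712, 694 and 737 CPM. Both assays were free of overlap, and RNA and footprints moved apart. Under library totals the RNA of Eprs was still called higher (0.29), while its footprint change was 0.03 without a call.

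In Wars and Aars, the cytosolic genes whose RNA was called lower, both assays moved the same way on the TMM scale. Wars had RNA of 73.5, 82.5 and 73.4 CPM in DMSO and of 64.9, 67.5 and 62.2 CPM with Rapalink-1 (-0.24 ± 0.067), and footprints of 139, 137 and 156 CPM and 119.6, 109 and 119.3 CPM. Aars had RNA of 492, 500.3 and 444 CPM and of 415, 422.5 and 423 CPM (-0.19 ± 0.045), and footprints of 622, 636.5 and 609 CPM and 521, 526 and 519.5 CPM. Both genes lay below their DMSO range in both assays, and their efficiency changes were within 1 SE of 0. Under library totals both RNA falls were called (-0.38 and -0.33), and the footprint changes were near 0 without a call (-0.04 for Wars and 0.02 for Aars).

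In mitochondrial genes, RNA of Pars2 rose from 6.73, 7.41 and 6.70 CPM to 12.8, 13.3 and 13.8 CPM, a change of 0.93 ± 0.16 and a 1.91-fold rise. The glutamate enzyme Ears2 rose from 26.1, 24.1 and 25.4 CPM to 35.5, 38.2 and 43.1 CPM (0.63 ± 0.092), with footprints of 16.5, 20.5 and 17.95 CPM in DMSO and of 21.8, 23.3 and 24.7 CPM with Rapalink-1. Sars2 rose by 0.42 and the isoleucine enzyme Iars2 by 0.37. Mars2 was the only mitochondrial gene called lower on the TMM scale, at -0.56 ± 0.088. The threonine enzyme Tars2 (0.14) was called with an adjusted p of 0.0448 in edgeR, which rose to between 0.0575 and 0.208 in 5 of the 6 fits without a replicate, 0.208 being without DMSO replicate 3. Nars, at 0.14, lost its call without DMSO replicate 1 (0.11, adjusted p = 0.101 in edgeR).

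ATF4, whose own RNA changed by -0.90 ± 0.05 and whose footprints changed by -1.14 ± 0.10 with Rapalink-1, acts through a composite element, TGATGNAA. This element was searched on both strands of the RefSeq promoter windows, 250 bases before to 50 bases after the annotated start, which were at hand for 14 cytosolic and 14 mitochondrial members. It was present in 5 of 14 cytosolic members (35.7%), in 0 of 14 mitochondrial members and in 4.06% of 27025 genes. The windows of 4 of these members are shown with the element in capitals, on the gene's strand, 5′ to 3′. In those shown, except Yars, the element lies on the opposite strand and so appears as its reverse complement.
Gars, chr6:55037960-55037989: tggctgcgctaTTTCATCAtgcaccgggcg
Iars, chr13:49682126-49682155: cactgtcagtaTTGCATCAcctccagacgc
Tars, chr15:11399655-11399684: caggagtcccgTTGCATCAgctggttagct
Yars, chr4:129189895-129189924: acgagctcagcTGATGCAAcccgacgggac
The stricter form TGATGCAA was in 4 of the 14 (28.6%) against 0.929% of all genes, and the E-box CACGTG, a site bound by MYC family factors, was in 4 of 14 cytosolic members (Aars, Farsb, Iars and Tars), in 1 of 14 mitochondrial members (Ears2) and in 7.24% of all genes. The RNA of the 5 members with the ATF4 element did not move one way with Rapalink-1: Gars (0.16), Iars (0.21) and Tars (0.21) were called higher, Aars (-0.19) lower, and Yars (-0.11) was not called. Under library totals Gars, Iars and Tars were not called (0.02, 0.07 and 0.07), and Aars (-0.33) and Yars (-0.24) were called lower. A match describes the sequence and does not show binding in these cells.

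Among 12 genes known as ATF4 or amino acid stress targets, Atf4 included, 11 were tested. With Rapalink-1, RNA rose for 2 and fell for 4, where 19.4% of all genes were called higher and 18.8% lower. Footprints fell for 10 of the 11, against 28% of all genes, and efficiency fell for 5, against 19.9%. Under library totals RNA rose for 1 and fell for 6, footprints rose for 1 and fell for 8, and efficiency rose for 2 and fell for 4. On that scale the median of all genes was -0.13 in RNA, 0.28 in footprints and 0.43 in efficiency. Far more of all genes were then called lower than higher in RNA, and far more higher than lower in footprints and efficiency, as given above. The 6 falls in RNA therefore stand against a larger background than the falls in the other 2 measures. The falls in RNA included Trib3 (-2.13 ± 0.26), a pseudokinase induced by stress, and Sesn2 (-1.22 ± 0.19), a leucine sensor. Falls in efficiency included Mthfd2 (-1.38 ± 0.08), of mitochondrial folate metabolism, Phgdh (-1.16 ± 0.07), the first enzyme of serine synthesis, and the amino acid transporter Slc7a5 (-0.81 ± 0.09), and all 3 were also called lower under library totals. The asparagine synthetase gene Asns changed by 0.04 ± 0.04 in RNA without a call.

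Proteins that work with the synthetases were counted in the same way. Of 15 accessory genes (scaffolds, proofreading and related tRNA-charging enzymes), efficiency with Rapalink-1 fell for 3 (Aimp1, Aarsd1 and Sepsecs) and rose for 1 (Trnt1), and under library totals it fell for 2 (Aimp1 and Aarsd1) and rose for 7. Aimp1, a scaffold of the multi-synthetase complex, changed by 0.29 ± 0.05 in RNA, -1.07 ± 0.07 in footprints and -1.31 ± 0.08 in efficiency, with efficiency at -0.95 under library totals. The other 2 scaffolds, Aimp2 and Eef1e1, changed by -0.08 ± 0.09 and -0.13 ± 0.09 in efficiency without a call, and both fell in RNA (-0.20 and -0.42). Under library totals the efficiency of Aimp2 and Eef1e1 was called higher (0.29 and 0.24). Of 18 genes of tRNA processing and modification, efficiency fell for 6 and rose for 2, or fell for 4 and rose for 7 under library totals. The methyltransferase Nsun2 changed by -1.04 ± 0.06, the tRNA ligase Rtcb by -0.74 ± 0.07 and the exportin Xpot by 0.43 ± 0.08. With 19.9% of all genes called lower and 22.3% higher on the TMM scale, the 3 of 15 accessory genes called lower are a share near the background. Under library totals far more of all genes were called higher than lower, so the rises in these 2 lists on that scale are not particular to them.

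With rapamycin, fewer synthetase genes were called, and those called in efficiency or footprints on the TMM scale were cytosolic. In efficiency 5 of 21 cytosolic genes were called lower (Qars, Eprs, Iars, Nars and Tars) and 0 higher (median -0.10), and of the 17 mitochondrial genes 0 were called in either direction (median 0.16), where 9.85% of all genes were called lower and 6.52% higher. Relative to the median of all genes, the mitochondrial median was 0.16 and the cytosolic median -0.10. Above that median lay 13 of the 17 mitochondrial genes. As a group these genes had fewer reads, for example a median count of 341.5 for Nars2 against 4736 for Nars. Smaller changes were therefore harder to call in them, and the absence of calls does not show that they were unchanged. At an unadjusted p under 0.05 in edgeR, 7 cytosolic genes were lower and 0 higher, and 1 mitochondrial gene, Nars2, was higher, while DESeq2 called 6 cytosolic genes lower and 0 mitochondrial genes. Shares of all genes at the unadjusted threshold and with DESeq2 are not given here, so these counts have no background beside them. Under library totals 3 cytosolic genes (Qars, Eprs and Nars) were called lower, and the mitochondrial asparagine enzyme Nars2, at 0.34 on the TMM scale (adjusted p = 0.0808), was called higher, and the calls over all genes went from 716 higher and 1082 lower to 930 higher and 846 lower.

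Qars had footprints of 145, 143 and 148 CPM with rapamycin, below its DMSO range, and RNA of 156, 158 and 152 CPM, above its DMSO range. Among all genes with rapamycin, 1767 of 11281 lay above and 1774 below their DMSO range in footprints. In RNA 2151 of 11271 lay above and 1858 below. The efficiency of Qars changed by -0.39 ± 0.080 (adjusted p = 0.000335), a 1.31-fold fall. Eprs had footprints of 733, 657.5 and 723.5 CPM with rapamycin and RNA of 879.5, 884 and 923 CPM, which overlapped its DMSO range in RNA and lay below it in footprints. Its efficiency changed by -0.30 ± 0.071 (adjusted p = 0.00182). Calls of Qars and Eprs were kept in every fit that left out a replicate, whereas those of Iars (-0.26), Nars (-0.23) and Tars (-0.21) were not, with adjusted p-values in edgeR of up to 0.115, 0.0599 and 0.116. Without DMSO replicate 1 or without rapamycin replicate 1, 2 members remained called lower, and without DMSO replicate 2 or rapamycin replicate 2 there were 3.

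Footprints fell with rapamycin for 13 of 21 cytosolic genes and rose for 0 (median -0.18), and of the 17 mitochondrial genes 0 were called by edgeR or DESeq2 and 1 at an unadjusted p under 0.05 (median 0.08), where 9.4% of all genes were called lower and 8.75% higher. These shares are for the adjusted p in edgeR, and those for the other 2 settings are not given here. Under library totals 7 cytosolic genes were called lower (Cars, Dars, Eprs, Lars, Nars, Rars and Tars) and 1 mitochondrial gene higher, with the calls over all genes at 1391 higher and 654 lower in place of 987 and 1060. Of the 8 subunits of the multi-synthetase complex, 7 fell in footprints, all but Mars, and 4 under library totals. The largest falls were those of the threonine enzyme Tars and the asparagine enzyme Nars. Tars had footprints of 467.5, 463.5 and 431 CPM in DMSO and of 348, 342 and 345 CPM with rapamycin (-0.40 ± 0.051). Nars had footprints of 543, 556 and 548 CPM in DMSO and of 431, 447 and 457 CPM with rapamycin (-0.30 ± 0.050). Neither gene overlapped between the groups in footprints. RNA of Nars was 365.5, 399.6 and 377.5 CPM in DMSO and 362, 358.5 and 373 CPM with rapamycin, which overlapped. Of the 13 calls, those of Gars, Iars, Kars, Qars and Wars were each lost in at least 2 fits that left out a replicate, and the lowest count of falls was 9.

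RNA changed less with rapamycin. Of the cytosolic genes 1 was called higher (Qars, 0.21 ± 0.054) and 4 lower (Dars, Tars, Lars and Mars), and of the mitochondrial genes 2 were called lower (Yars2 and Mars2), where 13.6% of all genes were called higher and 10.5% lower. RNA of Tars was 345, 333 and 331 CPM in DMSO and 289.9, 292 and 305 CPM with rapamycin (-0.19 ± 0.045). RNA of the aspartate enzyme Dars was 309, 296 and 319 CPM in DMSO and 268.5, 269 and 273 CPM with rapamycin (-0.19 ± 0.046). Both were below their DMSO range in all 3 libraries.

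RNA of Yars2 was 65.4, 58.5 and 58.5 CPM with rapamycin, below its DMSO range (-0.34 ± 0.068). RNA of Mars2 was 50.4, 39.4 and 40.7 CPM with rapamycin, which overlapped its DMSO range (-0.30 ± 0.088). The call of Mars2 was lost in 3 fits without a replicate (-0.20 without DMSO replicate 2), that of Mars in 4 (-0.12 without DMSO replicate 1) and that of Lars in 1 (-0.12 without DMSO replicate 1). Without DMSO replicate 3 the count of members with lower RNA rose from 6 to 10.

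Rapalink-1 and rapamycin were compared at the doses used, 50 nM and 5 nM, which differ, so the comparison is of 2 treatments and not of 2 compounds at a matched dose. It was fitted as its own contrast. Efficiency was lower with Rapalink-1 for 12 of 21 cytosolic genes and higher for 1 (Yars), and of the mitochondrial genes 5 were higher and 6 lower, where 26.1% of all genes were higher and 23.9% lower. Under library totals the cytosolic counts were 6 lower and 9 higher and the mitochondrial ones 0 lower and 8 higher, with the median of all genes moved by 0.33 and the calls over all genes from 2873 higher and 2631 lower to 5179 higher and 1196 lower. The largest differences were those of Qars (-1.32 ± 0.081), Vars (-0.92 ± 0.080), Tarsl2 (-0.88 ± 0.11), Kars (-0.80 ± 0.066), Farsb (-0.72 ± 0.075) and Sars (-0.62 ± 0.074), all 6 of which were also called lower under library totals. Lars2 (0.57 ± 0.12) was higher on both scales. The calls of Aars2, Hars, Rars2, Sars2, Vars2, Wars2 and Yars were lost in at least 1 fit without a replicate. That of Yars (0.26) went to 0.20 (adjusted p = 0.0526 in edgeR) without rapamycin replicate 1, and that of Vars2 (0.34) was lost in all 6 and with the RNA and footprint libraries of a dish paired (0.35, adjusted p = 0.0514 in edgeR).

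For Iars and Nars, which were called lower with both drugs against DMSO, the difference between the drugs was 0.01 ± 0.080 and 0.02 ± 0.067 in efficiency on the TMM scale, which is within its SE. Under library totals both were called higher with Rapalink-1 than with rapamycin (0.34 for Iars, adjusted p = 0.00051 in edgeR, and 0.34 for Nars, adjusted p = 2.34e-05 in edgeR), so the values do not show that the drugs act alike on these genes. RNA was higher with Rapalink-1 than with rapamycin for 17 of 21 cytosolic genes and lower for 1 (Yars), and for mitochondrial genes 7 were higher and 1 lower (Mars2), where 19.6% of all genes were higher and 21.5% lower. Under library totals the counts were 12 and 3 for cytosolic genes and 3 and 1 for mitochondrial genes, with the median of all genes moved by -0.14 and the calls over all genes from 2213 higher and 2422 lower to 1056 higher and 3963 lower. All 8 subunits of the multi-synthetase complex had higher RNA with Rapalink-1 on the TMM scale. The 2 falls of RNA, Yars (-0.15) and Mars2 (-0.27), lost their calls in 4 and 2 fits without a replicate. Without Rapalink-1 replicate 2 or without rapamycin replicate 1, 0 members were called lower in edgeR. The rises of Hars, Iars and Wars2 were lost in 2 or 3 such fits each.

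In footprints, as in efficiency, the contrast between the drugs is also one between the tags RP-B and RP, and these cannot be told apart. Footprints were lower with Rapalink-1 for 9 cytosolic genes and higher for 4 (Dars, Lars, Nars and Rars), and higher for 7 mitochondrial genes and lower for 3, where 25.4% of all genes were higher and 27.6% lower. Under library totals footprints of 4 cytosolic genes were lower and of 11 higher, and those of 11 mitochondrial genes were higher and of 0 lower, with the median of all genes moved by 0.22 and the calls over all genes from 2870 higher and 3119 lower to 4979 higher and 1830 lower. The call of Hars (-0.14) was lost in 5 of the 6 fits without a replicate, at -0.10 without rapamycin replicate 1, and that of Aars2 (-0.43) in 1, at -0.34 without Rapalink-1 replicate 1.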

How the data were processed

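RNA and ribosome footprints of GTML cells were sequenced for 3 treatments with 3 replicates each. The authors deposited 1 table of raw read counts per transcript row for all 18 libraries, on the mouse build GRCm38 (mm10) per the submitters' processing notes. The sources used here do not name the aligner, the read counter or the annotation. The authors also deposited tables of their own comparisons, with log2 fold changes, p-values, a score (the test statistic) and a signal (the mean of normalized counts), per the file headers. Only the log2 fold changes and adjusted p-values of these tables are quoted, as the authors' values.

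Transcript rows were brought to 1 row per gene, the row with most reads, since 27382 rows held 15307 distinct features. Of the members, Iars and Farsb had rows that differed. Counts were fitted with edgeR 4.0.16 (R 4.3.3): filterByExpr with a minimum count of 10, TMM factors and robust quasi-likelihood tests, with Benjamini-Hochberg adjustment over all genes tested and a threshold of 0.05. RNA and footprints were fitted on their own 9 libraries each, and efficiency on the 18 together for genes that passed in both assays. An SE is the log2 change divided by the square root of the test's F. Ratios per dish used a prior count of 2. Genes were not compared in level, because lengths were not at hand. The fits were tested on simulated counts.

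Per the labels' protocols the RNA aliquot was taken from the footprinted lysate. RNA and footprint libraries of one treatment and number were therefore taken to share a lysate, called a dish here. Deviations of such libraries from their group means correlated at r = -0.074 to 0.174 across genes. The value was over 0.1 in 3 of 9 such pairs, all of them DMSO, against 0 of 18 pairs with different numbers. Efficiency was therefore also fitted with the dish as a block, and values are given where a call changed.

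Values of every library are given for the 3 largest called falls and rises in each assay with Rapalink-1, and up to 2 with rapamycin, among cytosolic and mitochondrial genes separately. For 1 mitochondrial member no values of its own, and for 1 promoter no sequence, are reported here, while counts and medians include that member. The members, the gene lists and the tests were chosen with earlier results of these data known. Alternatives were other scalings (DESeq2 size factors, library totals, TMM without ribosomal protein genes), no count filter, DESeq2 1.42.0, the sum of distinct rows, only the treatments compared, replicate blocks, and each replicate left out. Promoter and start sequences were taken from RefSeq (GRCm38.p6) for 28 of the 38 members. Libraries of 6788365 to 14150068 reads gave the members 38 reads at the lowest (Pars2), and counts limit the precision of Pars2, Wars2, Fars2, Vars2 and Aars2 most.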

Additional observations from a re-analysis of the deposited data

How the results depend on the processing

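Scaling was the choice that moved most results. With library totals in place of TMM factors, efficiency calls among the 38 members became 17 higher and 7 lower for Rapalink-1 against DMSO (7 and 16 under TMM), 17 and 6 for Rapalink-1 against rapamycin (6 and 18) and 1 and 3 for rapamycin against DMSO (0 and 5). Footprint calls became 20 and 8, 22 and 4, and 1 and 7 in the same order, against 11 and 17, 11 and 12, and 0 and 13. RNA calls became 11 and 5 and 15 and 4 for the Rapalink-1 comparisons, against 18 and 3 and 24 and 2. The cause was not tested. Over the other alternatives, 19 of 23 efficiency, 25 of 28 footprint and 19 of 21 RNA calls with Rapalink-1 were kept in all of them, as were 2 of 5, 8 of 13 and 4 of 7 with rapamycin and 17 of 24, 21 of 23 and 21 of 26 between the drugs.

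Single values that changed sign under library totals, with a call on either side, were these. In efficiency with Rapalink-1 they were Aars 0.35, Cars2 0.10, Dars 0.26, Farsa 0.12, Gars 0.0554, Hars 0.20, Iars 0.11, Iars2 0.19, Nars 0.15, Rars 0.27, Sars2 0.0182 and Wars 0.34. In efficiency between the drugs they were Dars 0.28, Gars 0.0585, Hars 0.0808, Tars 0.0339 and Tars2 0.29. In footprints with Rapalink-1 they were Aars 0.0198, Cars 0.14, Dars 0.23, Eprs 0.0276, Farsa 0.0688, Gars 0.08, Hars 0.14, Iars 0.18, Nars 0.15 and Yars 0.27, and between the drugs Aars 0.15, Farsa 0.0319, Gars 0.19 and Hars 0.0816. In RNA with Rapalink-1 it was Nars at -0.0009.

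With each replicate left out in turn, calls over the members ranged as follows, higher first and lower second. Efficiency gave 6 to 7 and 14 to 16 with Rapalink-1, 0 and 2 to 6 with rapamycin, and 4 to 5 and 16 to 18 between the drugs. Footprints gave 10 to 11 and 16 to 18, 0 and 9 to 14, and 11 to 12 and 11 to 13. RNA gave 16 to 19 and 3 to 4, 1 and 4 to 10, and 22 to 25 and 0 to 2.

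With the treatment replicate number as a replicate block, efficiency with Rapalink-1 gained Yars2 (-0.24, adjusted p = 0.0402 in edgeR), footprints gained Cars with Rapalink-1 (-0.13), Sars with rapamycin (-0.15) and Yars2 between the drugs (-0.17), and RNA with Rapalink-1 lost Tars2 (0.14, adjusted p = 0.0643 in edgeR). Same-numbered libraries of different treatments correlated at r = -0.176 to 0.047 in RNA and at -0.188 to 0.225 in footprints. In footprints 5 of 9 same-numbered pairs were over 0.1, against 2 of 18 with different numbers, and in RNA 0 of 9 against 2 of 18. Not every pair was over 0.1, and not every footprint library correlated best with its own number, so the main fits used no replicate block. That bar does not show that same-numbered footprint libraries were handled apart.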
